A study of Homo sapiens with 16 samples.

Results

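The circadian clock genes described here are 10 of the 19970 protein-coding genes of the annotation: the core activators CLOCK, BMAL1 (ARNTL) and BMAL2 (ARNTL2), the repressor arm PER1, PER2, CRY1, CRY2 and NR1D1, and the clock-linked regulators CREB1 and KLF10. Binding of p65 (RELA), the transactivating subunit of NF-κB, was read around each gene from 50 kb upstream to 10 kb beyond its end, which gave 6077 of the 15155223 bins of 200 bp on chromosomes 1 to 22 and X (GRCh38). The 16 tracks come from chromatin immunoprecipitation and sequencing with a p65 antibody in HT29 and SW480, both human colorectal adenocarcinoma lines, each stably transfected with an empty vector (mock) or with estrogen receptor beta (ERβ) and grown in blasticidin. Every line, the mock cells included, received TNFα at 30 ng/ml for 30 min before crosslinking with DSG and formaldehyde, so no untreated cells are compared here. Each of the 4 groups had 3 ChIP libraries and 1 input. The study calls the 3 libraries of a group biological replicates, and the p-values measure the spread between them. Whether a transfected line was a clone or a pool is not given in the sources used here. The labels list the antibody and TNFα for the inputs too, and the ERβ inputs were taken from another series.

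In the mammalian clock, CLOCK and BMAL1 pair and bind E-boxes, among others in the PER and CRY genes, whose proteins return to the nucleus and repress that pair. NR1D1 (REV-ERBα) closes a further loop by repressing BMAL1. CREB1 carries cAMP and light signals to PER1, KLF10 is a clock-controlled zinc-finger repressor, and NF-κB is the main transcription factor switched on by TNFα.

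Signal is the authors' tag density scaled to 10 M tags, averaged over a bin, and read depth cannot be recovered from the tracks. At the NF-κB targets TNFAIP3 and NFKBIA the group means ran from 12.8 to 27.5 against inputs below 1.1. Over the coding exons of ESR2, which encodes ERβ, the ratio of exon to intron signal was 4.01 to 6.89 in the 3 HT29 ERβ libraries, 2.33 to 2.93 in the SW480 ERβ libraries and 1.1 to 1.57 in the 6 mock libraries, so every ChIP library matched its label. In the inputs it was 1.17 and 2.11 in HT29 mock and HT29 ERβ and 1.54 and 1.73 in SW480 mock and SW480 ERβ, so the SW480 inputs lay close together. The libraries differed in enrichment: over the 25545 bins tested the mean signal was 2.7 and 2.34 in replicate 1 of HT29 mock and HT29 ERβ against 1.23 to 1.5 in the other HT29 libraries, and 2.77 and 2.59 in replicates 2 and 3 of SW480 ERβ against 1.15 to 1.68 in the other SW480 libraries. In bins with a mean signal below 0.5 all libraries lay between 0.284 and 0.293. A difference in p65 occupancy and a difference in immunoprecipitation yield cannot be told apart from these tracks where it covers most sites, so the shift of all bins is given beside each comparison.

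The DNA under the strongest p65 signal is shown for 5 of the genes, since the listing and the contrasts below turn on these windows. The lead bin of a gene is the bin with the highest mean over the 12 ChIP libraries in its window. Each sequence is the GRCh38 reference on the strand of the gene, with capitals for a κB motif match (a NF-κB site, searched by name) or an E-box (CACGTG).
CLOCK, chr4:55546001-55546200, centred at −169 bp from its nearest start: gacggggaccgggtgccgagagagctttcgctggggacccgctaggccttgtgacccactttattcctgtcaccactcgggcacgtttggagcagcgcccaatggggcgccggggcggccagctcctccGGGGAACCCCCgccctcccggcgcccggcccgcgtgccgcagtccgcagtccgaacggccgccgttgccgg
BMAL1, chr11:13278401-13278600, intron: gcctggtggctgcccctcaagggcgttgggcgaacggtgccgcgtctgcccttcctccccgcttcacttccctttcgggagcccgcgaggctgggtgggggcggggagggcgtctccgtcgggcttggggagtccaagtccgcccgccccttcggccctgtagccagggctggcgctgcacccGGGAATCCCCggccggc
PER1, chr17:8156601-8156800, upstream of the start: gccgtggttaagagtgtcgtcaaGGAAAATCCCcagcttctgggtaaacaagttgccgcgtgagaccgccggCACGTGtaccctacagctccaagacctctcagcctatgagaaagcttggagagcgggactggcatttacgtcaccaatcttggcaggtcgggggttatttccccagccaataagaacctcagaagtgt
CRY2, chr11:45843201-45843400, intergenic: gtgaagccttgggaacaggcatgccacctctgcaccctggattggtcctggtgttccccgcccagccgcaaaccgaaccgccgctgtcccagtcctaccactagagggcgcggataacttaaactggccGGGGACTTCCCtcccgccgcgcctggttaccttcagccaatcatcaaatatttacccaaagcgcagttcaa
NR1D1, chr17:40108401-40108600, intergenic, no match: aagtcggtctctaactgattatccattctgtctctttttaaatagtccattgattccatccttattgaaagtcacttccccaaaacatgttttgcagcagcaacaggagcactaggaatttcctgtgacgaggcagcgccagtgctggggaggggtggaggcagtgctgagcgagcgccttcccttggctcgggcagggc

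Matches were searched on both strands as the κB motif, AP-1 (TGACTCA or TGAGTCA) and the E-box. A κB match lay in the lead bin of 7 of the 10 genes (CLOCK, BMAL1, BMAL2, PER1, CRY2, CREB1 and KLF10), against 32.0% of the 25545 bins tested and 39.3% of the 12110 tested bins listed in any group. No lead bin held AP-1 (8.81% of tested bins), and the lead bin of PER1 alone held an E-box (3.89%). These are unlike sets, since a lead bin is the highest of its window and most tested bins are not. The share over the lead bins of all protein-coding genes was not counted. The sites below are shown with their flanking bases because they place shared letters in different genes.
CREB1, at −87 bp: cacccctcGGGAATTCCCccactggg
CREB1, at −663 bp, minus strand: cccagcagGGGGACTTCCgtggctgg
NR1D1, at −530 bp: gactccagGGAAATCTCCctccccgg
PER1 E-box, at −220 bp: accgccggCACGTGtaccctac
PER1 E-box, at −36 bp: ccctctctCACGTGtatctctc
NR1D1 E-box, at −462 bp: cctgcaatCACGTGaagccctc
The CRY2 lead site and the distal CREB1 site carried the same 10 bases, GGGGACTTCC. The NR1D1 start bin held both a κB match and an E-box, as did the PER1 lead bin. A match describes the letters of the window and does not show binding through it.

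A bin was listed for a group where its mean over 3 libraries was at least 2 and at least 4 times the input of that group. This rule listed 31 bins at 8 of the 10 genes in any group, and none at PER2 or CRY1. HT29 mock had 19 listed bins, HT29 ERβ 12, SW480 mock 5 and SW480 ERβ 23, which is 0.313%, 0.197%, 0.0823% and 0.378% of the 6077 bins. Over all bins in reach of a protein-coding gene the shares were 0.0588%, 0.0382%, 0.0142% and 0.0915%, and 0.118% for any group, against 0.510% here. By gene, 7, 6, 3 and 7 of the 10 had a listed bin in HT29 mock, HT29 ERβ, SW480 mock and SW480 ERβ, against 21.6%, 15.8%, 7.59% and 31.7% of all protein-coding genes, and 8 against 35.8% for any group. The windows of the 10 genes are longer (median 121 kb) than those of all protein-coding genes (median 87.6 kb). The study had already named CLOCK, BMAL2, CREB1 and KLF10 as p65-bound from these libraries. A high share among the 10 was thus partly built in, and nothing is concluded from it. The study also named CLOCK and BMAL2 among sites that ERβ opposed in HT29 and that SW480 bound with ERβ alone. The ERβ contrasts below are thus not independent of that selection at CLOCK and BMAL2. Within 1 kb of the 5′ end, 5, 3, 2 and 5 genes had a listed bin, against 4.95%, 3.14%, 1.21% and 7.68% of all genes, and 6 against 8.59% for any group.

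The windows of the core activators held 2513 bins, those of the repressor arm 2546 and those of CREB1 and KLF10 1018. The core activators had 6, 1, 0 and 3 listed bins in HT29 mock, HT29 ERβ, SW480 mock and SW480 ERβ. The repressor arm had 6, 5, 1 and 11, and CREB1 with KLF10 had 7, 6, 4 and 9. In HT29 mock these were 0.239%, 0.236% and 0.688% of the bins, in SW480 ERβ 0.119%, 0.432% and 0.884%, and 6 of the 11 repressor arm bins of SW480 ERβ were those of PER1. SW480 ERβ alone listed 11 of the 31 bins (35.5%) and HT29 mock alone 5 (16.1%), against 43.0% and 11.1% of the listed bins in reach of all protein-coding genes. The 5 bins of SW480 mock were also listed in HT29 mock and in SW480 ERβ, as were 72.3% and 99.4% of those of all genes. Of the HT29 mock bins 57.9% were listed in HT29 ERβ too (56.9% over all genes), and of the HT29 ERβ bins 91.7% in HT29 mock (87.4%). Of the 31 bins, 15 lay within 1 kb of the 5′ end, 11 at 1 to 5 kb and 2 beyond 15 kb. The threshold sat close to several bins: the CLOCK lead bin in HT29 ERβ was 3.89-fold over input and not listed, the KLF10 lead bin in SW480 mock was 4.06-fold and listed, and the CRY2 bin at +1583 bp was 3.95-fold in SW480 mock and 4.09-fold in SW480 ERβ.

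**Figure D1:**
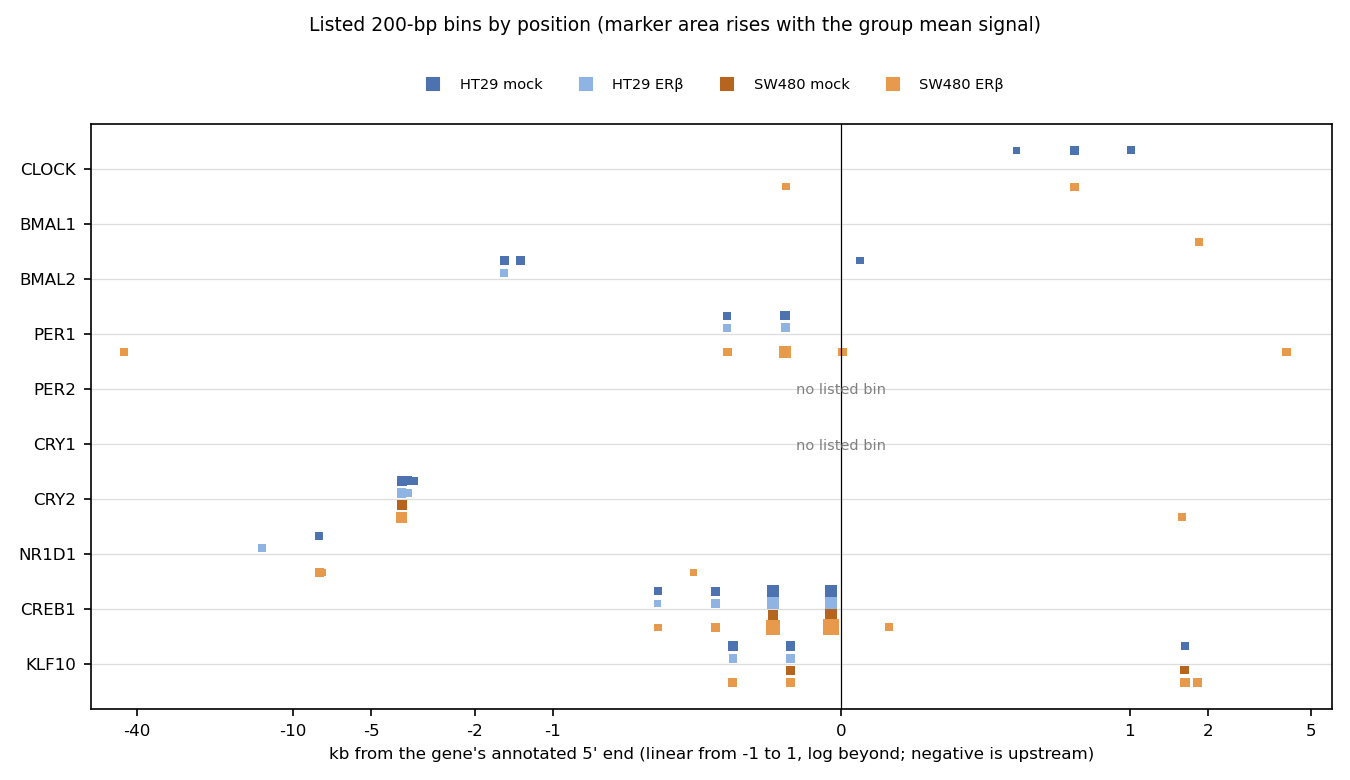
Position of each listed 200-bp bin relative to the annotated 5′ end of its gene, in kb (linear between −1 and 1 kb, logarithmic beyond). Squares mark the bins listed in each of the 4 groups, with an area that rises with the group mean signal. CREB1 and KLF10 have bins at the start in all 4 groups, and KLF10 has others at +1624 and +1824 bp. CRY2 is marked upstream in all 4, and PER2 and CRY1 have none.

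Among the core activators, CLOCK, the histone acetyltransferase partner of BMAL1, had its strongest p65 signal in the bin at chr4:55546001-55546200, in an intron 808 bp from the annotated 5′ end. The CLOCK signal was 5.93, 3.55 and 2.88 in HT29 mock and 4.26, 2.79 and 2.54 in HT29 ERβ. It was 1.80, 2.46 and 0.799 in SW480 mock and 2.83, 3.17 and 4.24 in SW480 ERβ. Every SW480 mock library was thus below every HT29 mock library and below every SW480 ERβ library, and the 2 HT29 groups overlapped. The means were 4.12 ± 1.60, 3.20 ± 0.932, 1.68 ± 0.834 and 3.41 ± 0.733 (SD, n = 3), or 7.02, 3.89, 1.45 and 6.71 times input. The single inputs there were 0.587, 0.821, 1.16 and 0.509, so the SW480 groups differed more in fold over input than in signal.

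BMAL1, the obligate partner of CLOCK, carried less p65 signal, in an intron bin 1849 bp from its 5′ end. BMAL1 signal was 2.57, 0.912 and 1.32 in HT29 mock, 1.45, 1.41 and 1.66 in HT29 ERβ, 1.5, 1.24 and 0.633 in SW480 mock and 1.54, 3.16 and 3.07 in SW480 ERβ. Only the SW480 ERβ mean, 2.59 ± 0.912, was listed, at 4.75 times input, and its lowest library stood just above the highest SW480 mock library. SW480 mock, at 1.13 ± 0.446, was 1.09 times input.

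BMAL2, a paralogue of BMAL1, is an example of a bin that was high in signal but not listed. In its lead bin, chr12:27333401-27333600 in an intron, BMAL2 signal was 4.86, 2.7 and 2.06 in HT29 mock, 3.00, 1.11 and 1.67 in HT29 ERβ, 3.05, 2.87 and 4.11 in SW480 mock and 3.93, 8.65 and 6.16 in SW480 ERβ. The input there was 0.828 and 0.945 in the HT29 groups but 2.48 and 2.09 in the SW480 groups, so SW480 mock with a mean of 3.34 ± 0.672 was only 1.35 times input. Around BMAL2 the input over 100 kb was 1.76 and 1.89 times the genome mean in HT29 mock and HT29 ERβ and 3.71 and 3.63 times in SW480 mock and SW480 ERβ. The listed BMAL2 bin at −1535 bp was instead strongest in HT29, with means of 4.64 in HT29 mock and 3.51 in HT29 ERβ (9.88 and 5.60 times input) against 2.01 and 2.87 in SW480 mock and SW480 ERβ.

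In the repressor arm, PER1, an immediate-early clock gene, had its p65 maximum in the bin centred at −195 bp, just upstream of the start. PER1 signal was 6.83, 3.80 and 3.84 in HT29 mock, 7.47, 2.77 and 2.66 in HT29 ERβ, 5.17, 7.18 and 4.49 in SW480 mock and 4.92, 12.6 and 6.49 in SW480 ERβ. All 4 groups overlapped, and the highest value of each HT29 group was replicate 1. The means were 4.82 ± 1.74, 4.30 ± 2.75, 5.61 ± 1.40 and 7.99 ± 4.04, or 13.2, 7.86, 3.63 and 7.43 times input, since the input was 0.366 and 0.547 in HT29 but 1.54 and 1.07 in SW480. Away from the start, the PER1 bin at +4005 bp, next to an alternative PER1 start, had group means of 0.816, 0.753, 2.23 and 3.20, and the bin at −44795 bp had 1.98, 0.906, 1.14 and 3.45. Both were listed in SW480 ERβ alone, and the nearest protein-coding start to the distal bin was that of AURKB, 5397 bp away.

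PER2, the PER1 paralogue, had no listed bin. Its lead bin, 801 bp into the gene, had PER2 signal of 2.35, 0.956 and 1.15 in HT29 mock, 2.34, 1.05 and 1.07 in HT29 ERβ, 0.823, 1.37 and 0.786 in SW480 mock and 0.686, 3.54 and 2.98 in SW480 ERβ. The SW480 ERβ mean of 2.40 ± 1.51 was 3.26 times input, and its replicate 1 was the lowest of the 12 libraries.

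CRY1 and CRY2 encode the cryptochromes that bind CLOCK and BMAL1 with the PER proteins. They stood at opposite ends of the repressor arm by mean signal over the 12 ChIP libraries. The CRY1 lead bin, at −152 bp, had CRY1 signal of 0.559, 0.33 and 0.314 in HT29 mock, 0.530, 0.350 and 0.638 in HT29 ERβ, 1.47, 1.39 and 0.835 in SW480 mock and 2.00, 0.460 and 0.641 in SW480 ERβ. All 3 SW480 mock libraries were above all 6 HT29 libraries, but the inputs were too: the bin had group means of 0.401 ± 0.137, 0.506 ± 0.145, 1.23 ± 0.346 and 1.03 ± 0.840 in HT29 mock, HT29 ERβ, SW480 mock and SW480 ERβ, which is 1.09, 0.843, 0.943 and 1.18 times input, and it was not tested, as its mean over the 12 ChIP libraries (0.793) was under 2 times that of the inputs (0.788). The intergenic CRY2 lead bin, at −3817 bp, was listed in all 4 groups. There CRY2 signal was 8.37, 4.12 and 5.53 in HT29 mock, 7.52, 4.33 and 3.72 in HT29 ERβ, 4.94, 4.54 and 5.69 in SW480 mock and 5.92, 9.33 and 8.59 in SW480 ERβ. The SW480 groups did not overlap, by a narrow margin, and every other pair of groups did. CRY2 means were 6.01 ± 2.17, 5.19 ± 2.04, 5.05 ± 0.584 and 7.94 ± 1.79, at 6.12 to 9.19 times input.

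NR1D1 encodes the nuclear receptor REV-ERBα. Its lead bin lay at −7912 bp, between genes. NR1D1 signal there was 4.14, 1.69 and 1.57 in HT29 mock, 2.99, 1.82 and 1.41 in HT29 ERβ, 0.814, 0.782 and 2.25 in SW480 mock and 1.77, 4.12 and 4.29 in SW480 ERβ. SW480 mock replicate 3 was above SW480 ERβ replicate 1, so the SW480 groups overlapped. The means were 2.47 ± 1.45, 2.08 ± 0.821, 1.28 ± 0.841 and 3.39 ± 1.41, and the last was 8.39 times input. In the NR1D1 start bin at −512 bp, where the κB match and the E-box lie, the means were lower at 1.64, 1.48, 1.35 and 2.28, listed in SW480 ERβ alone. A bin at −13112 bp was listed in HT29 ERβ alone; it lies in a transcript other than NR1D1 and the nearest protein-coding start is that of MSL1.

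CREB1, the cAMP response element binding factor, had the strongest p65 signal of the 10 genes. Its lead bin, chr2:207529601-207529800, overlaps the annotated start and was listed in all 4 groups. CREB1 signal was 11.8, 8.42 and 7.30 in HT29 mock, 12.8, 6.39 and 5.49 in HT29 ERβ, 7.79, 7.87 and 11 in SW480 mock and 13.8, 22.2 and 18.3 in SW480 ERβ. Each SW480 ERβ library was above all 9 libraries of the other groups. The CREB1 means were 9.17 ± 2.33, 8.23 ± 4.0, 8.90 ± 1.85 and 18.1 ± 4.21, at 12.6, 11.7, 11.5 and 23.3 times input, and listed bins ran without a gap over chr2:207529001-207530000.

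KLF10, a TGFβ-inducible repressor, was also listed in all 4 groups at its start. In the KLF10 lead bin, at −176 bp, signal was 7.05, 4.74 and 4.27 in HT29 mock, 5.35, 2.66 and 3.70 in HT29 ERβ, 3.77, 3.29 and 2.87 in SW480 mock and 5.70, 5.49 and 4.38 in SW480 ERβ. SW480 mock was the lowest group and overlapped HT29 ERβ alone. A second KLF10 region at +1624 bp had means of 3.11, 2.53, 3.23 and 5.49.

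Across the 10 lead bins the highest group mean was in SW480 ERβ for 7 genes, in HT29 mock for CLOCK and KLF10 and in SW480 mock for CRY1. As fold over input, HT29 mock was highest for 5 genes (CLOCK, BMAL2, PER1, CRY2 and KLF10) and SW480 ERβ for the other 5. The ratio of the highest to the lowest group mean ran from 1.57 for CRY2 and 1.62 for KLF10 to 3.07 for CRY1 and 3.24 for BMAL2. The inputs of the last pair of genes were also higher in SW480: CRY1 was 0.843 to 1.18 times input in the 4 groups, and BMAL2 over input was 3.87 in HT29 mock, 2.04 in HT29 ERβ, 1.35 in SW480 mock and 2.99 in SW480 ERβ.

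**Figure D2:**
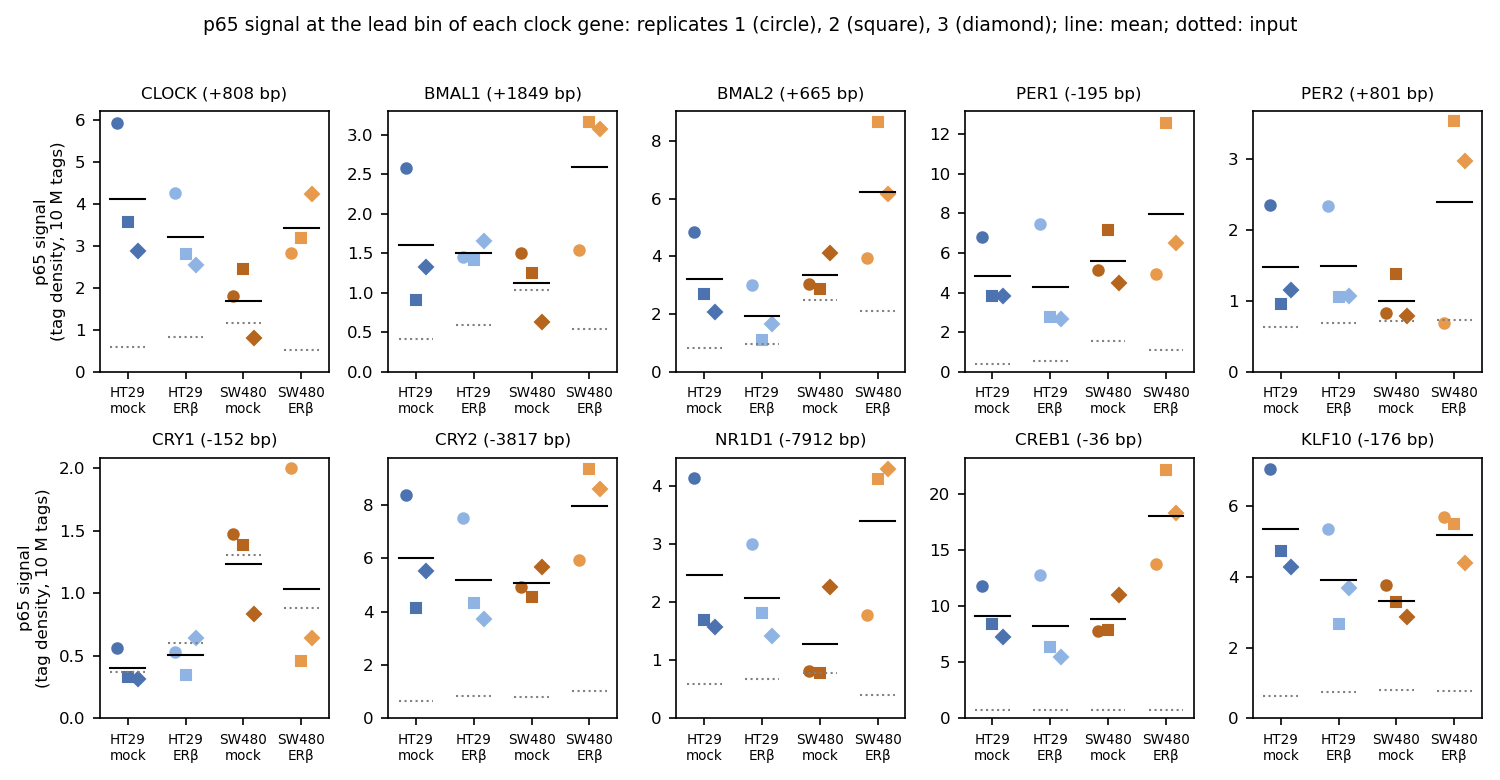
p65 signal (tag density scaled to 10 M tags) in the lead bin of each of the 10 genes, by group, with replicates 1, 2 and 3 as circle, square and diamond, the group mean as a line and the input as a dotted line. The 3 SW480 ERβ points of CREB1, between 13.8 and 22.2, are above every other CREB1 point, and the CRY1 points lie around their inputs.

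**Figure D3:**
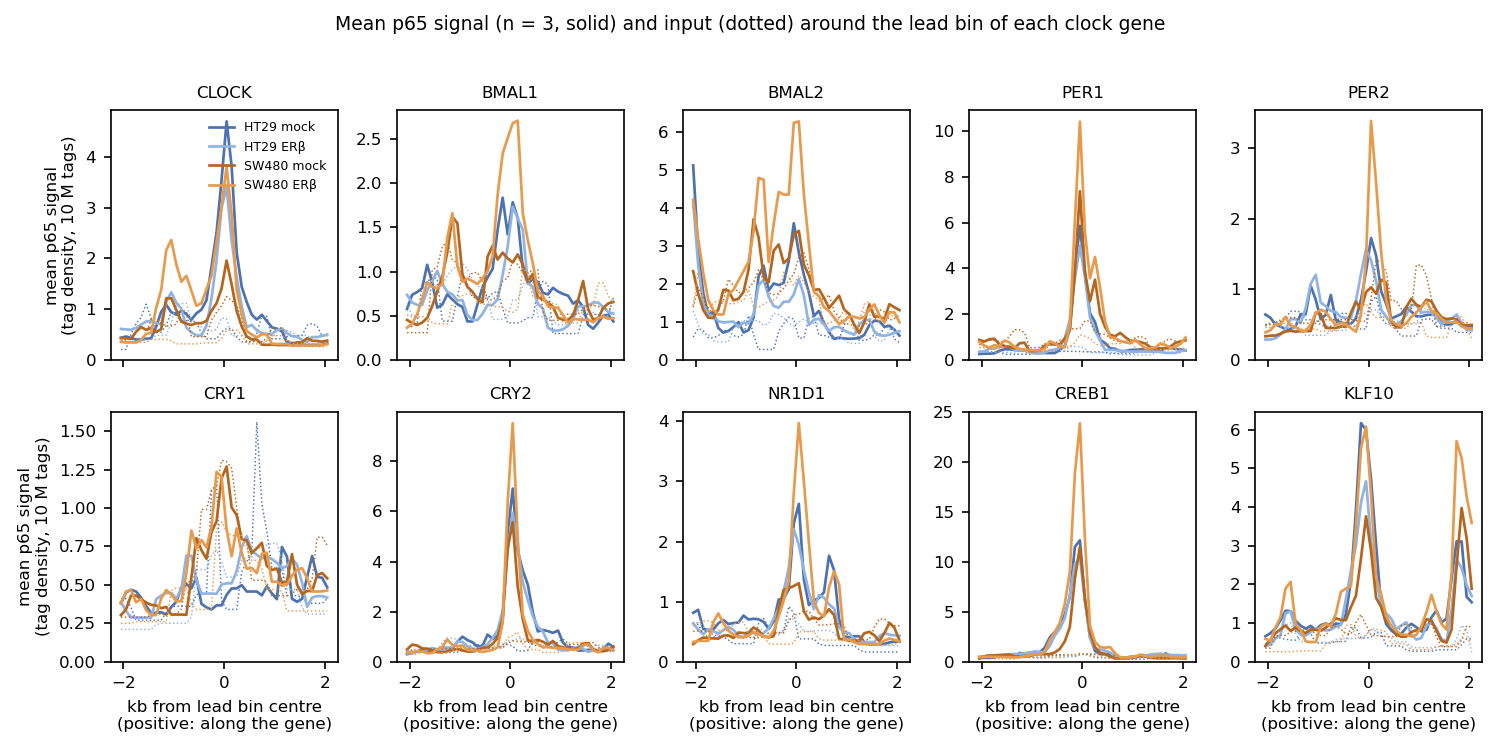
Mean p65 signal of each group (solid, n = 3) and its input (dotted), in tag density scaled to 10 M tags, against the distance in kb from the centre of the lead bin. CRY2 and CREB1 show 1 sharp summit in every group, CRY1 stays near its inputs, and BMAL2 lies on a raised input in SW480.

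The first comparison asked whether ERβ went with a difference in p65 binding at clock genes in HT29. Of the 25545 bins, 0.00391% were called higher and 0.00391% lower (limma, Benjamini-Hochberg adjusted p under 0.05), and 434 had an unadjusted p under 0.05. Of the lead bins of all protein-coding genes 0.0189% were higher and 0.0189% lower. None of the 9 lead bins tested was called, and the HT29 mock and HT29 ERβ libraries overlapped at all 9, where 0.754% of all lead bins had ERβ wholly above and 3.58% wholly below. The log2 differences, ERβ minus mock, ran from −0.52 at BMAL2 and −0.39 at KLF10 to 0.00 at PER2, with a median of −0.20 against −0.11 over all bins and −0.16 over the lead bins of all protein-coding genes. Their standard errors were 0.295 to 0.392. On the deposited scale 8 of the 9 were negative, but after quantile normalisation 5 were positive and 4 negative, with a median of 0.03. Without both replicate 1 libraries, an alternative chosen after seeing the data, no clock gene was called either. The study reported that ERβ hindered p65 binding near circadian clock genes in HT29. It did so from peaks found with and without ERβ, a different measure from this test.

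In SW480 the same comparison gave mostly higher calls: 18.8% of all bins were higher in ERβ and 0.00391% (1 bin) lower, and of the lead bins of all protein-coding genes 25.5% were higher and 0.0% lower. NR1D1 was the 1 lead bin of 9 called higher in the fit without the replicate block, with a log2 difference of 0.95 (SE 0.33, adjusted p = 0.033 by limma). Its lower group, SW480 mock, was 1.63 times input and alone did not meet the filter of the test, at least 2 times the inputs. CREB1 was at 0.94 (0.38, adjusted p = 0.067), CLOCK at 0.76 (0.35, 0.11), BMAL1 at 0.74 (0.30, 0.063), BMAL2 at 0.70, PER2 at 0.66, CRY2 at 0.55, KLF10 at 0.52 and PER1 at 0.37. Quantile normalisation gave 944 bins higher and 209 lower in place of 4794 and 1. All 9 differences were positive on the deposited scale, but after quantile normalisation 5 were positive and 4 negative. The median was 0.70 against 0.43 over all bins and 0.58 over the lead bins of all protein-coding genes. The groups did not overlap at CREB1, KLF10, BMAL1, CLOCK and CRY2, that is at 5 of 9, where 45.2% of all lead bins had SW480 ERβ wholly above and 0.132% wholly below.

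The NR1D1 call rested on few libraries. It was lost without SW480 mock replicate 1 (log2 0.81, adjusted p = 0.171) or 2 (0.80, 0.166) and without SW480 ERβ replicate 2 (0.81, 0.175) or 3 (0.78, 0.185), and after quantile normalisation NR1D1 was at 0.36 with an adjusted p of 0.397. With no filter on input the adjusted p was 0.0999. Without replicates 2 and 3 of SW480 ERβ, chosen after seeing the data, it was at 0.34 with an adjusted p of 1.00, and over its 23 alternatives the adjusted p of NR1D1 ran from 0.000102 to 1.00. At the NR1D1 start bin the log2 difference was 0.48 (SE 0.30, adjusted p = 0.23, and 0.0383 with the replicate block). With the replicate number as a block, 8 of 9 lead bins were called higher, among them NR1D1 (adjusted p = 0.000102), CREB1 (0.0002), BMAL1 (0.00217) and CLOCK (0.00236), and PER1 (0.136) was not; in that fit 12210 bins were higher and 13 lower.

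The line comparison in mock cells, SW480 minus HT29, asked where the 2 cell lines differ without ERβ. Of all bins 6.38% were higher and 24.5% lower in SW480, and of the lead bins of all protein-coding genes 8.28% and 23.3%. CLOCK fell by 0.94 on the log2 scale (SE 0.35, adjusted p = 0.033 by limma), and its groups did not overlap. Its lower group, SW480 mock, was 1.45 times input and alone did not meet the filter of the test either. None of the other 8 lead bins was called, with NR1D1 at −0.58 and KLF10 at −0.54 (adjusted p = 0.275), and KLF10 was the other gene with all 3 SW480 libraries below all 3 of HT29, as were 32.3% of all lead bins, with 13.4% wholly above. The median over the 9 was −0.26 against −0.29 over all bins. The CLOCK call was lost without HT29 mock replicate 1 (−0.70, adjusted p = 0.168), SW480 mock replicate 1 (−0.99, 0.0697) or replicate 3 (−0.68, 0.236), and after division by the local input (−0.73, 0.106) and without both HT29 replicate 1 libraries (−0.70, 0.0746), and the adjusted p ran from 0.00873 to 0.236 over 23 alternatives. With quantile normalisation 5694 bins were higher and 5638 lower in place of 1629 and 6270. The signs at the 9 lead bins then went from 2 positive and 7 negative to 6 positive and 3 negative, with BMAL2 (0.50, adjusted p = 0.0365) and PER1 (0.51, 0.0257) called higher and 1 bin lower.

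In ERβ cells 30.0% of all bins were higher in SW480 and 9.95% lower, and of the lead bins of all protein-coding genes 37.6% and 7.73%. BMAL2 rose by a log2 difference of 1.31 (SE 0.37, adjusted p = 0.0023) and CREB1 by 1.1 (0.38, 0.014), both with all 3 SW480 libraries above all 3 of HT29, as at 35.2% of all lead bins, with 8.3% wholly below. PER1 was at 0.79 (adjusted p = 0.0985), CRY2 at 0.56, NR1D1 at 0.49, BMAL1 at 0.48 and CLOCK at 0.08. All 9 were positive, with a median of 0.49 against 0.29 over all bins and 0.51 over all lead bins, and after quantile normalisation 6 were positive and 3 negative. With quantile normalisation 6089 bins were higher and 6043 lower in place of 7661 and 2542.

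The BMAL2 difference moved with the local input: divided by the input over 100 kb it was 0.43 (adjusted p = 0.228), and PER1, where that input was 0.903 and 1.06 times the genome mean in HT29 and 2.18 and 1.76 times in SW480, went from 0.79 to 0.17. Around CREB1 the local input was 1.13 to 1.22 times the genome mean in the 4 groups. The CREB1 call was lost without HT29 ERβ replicate 2 (0.99, adjusted p = 0.0696) or 3 (0.89, 0.0988), without SW480 ERβ replicate 2 (0.95, 0.0807) or 3 (1.08, 0.0591), and with quantile normalisation (0.36, 0.0508). Over 23 alternatives the adjusted p of CREB1 ran from 0.00016 to 0.393 and that of BMAL2 from 6.92e-05 to 0.322. The highest values of both came without SW480 ERβ replicates 2 and 3, chosen after seeing the data, where CREB1 was at 0.76 and BMAL2 at 0.80.

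Whether ERβ went with a different change in SW480 than in HT29 was tested as an interaction. Of all bins 7.09% had a higher SW480 effect and 0.0% a lower one, with 7021 at an unadjusted p under 0.05. None of the 9 clock gene lead bins was called, against 10.4% higher and 0.0% lower among the lead bins of all protein-coding genes. The largest were BMAL2 at 1.22 (adjusted p = 0.118), CREB1 at 1.13 (0.157), NR1D1 at 1.07 (0.126) and CLOCK at 1.02 (0.169), with a median of 0.91 against 0.56 over all bins and 0.74 over all lead bins. All 9 were positive, but after quantile normalisation 5 were positive and 4 negative, with a median of 0.03. With the replicate block 7 of 9 were called, all but PER1 (adjusted p = 0.104) and PER2 (0.0562), along with 10262 bins higher and 6 lower over the genome. The 5 contrasts share libraries, so their values are given side by side and were not correlated.

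**Figure D4:**
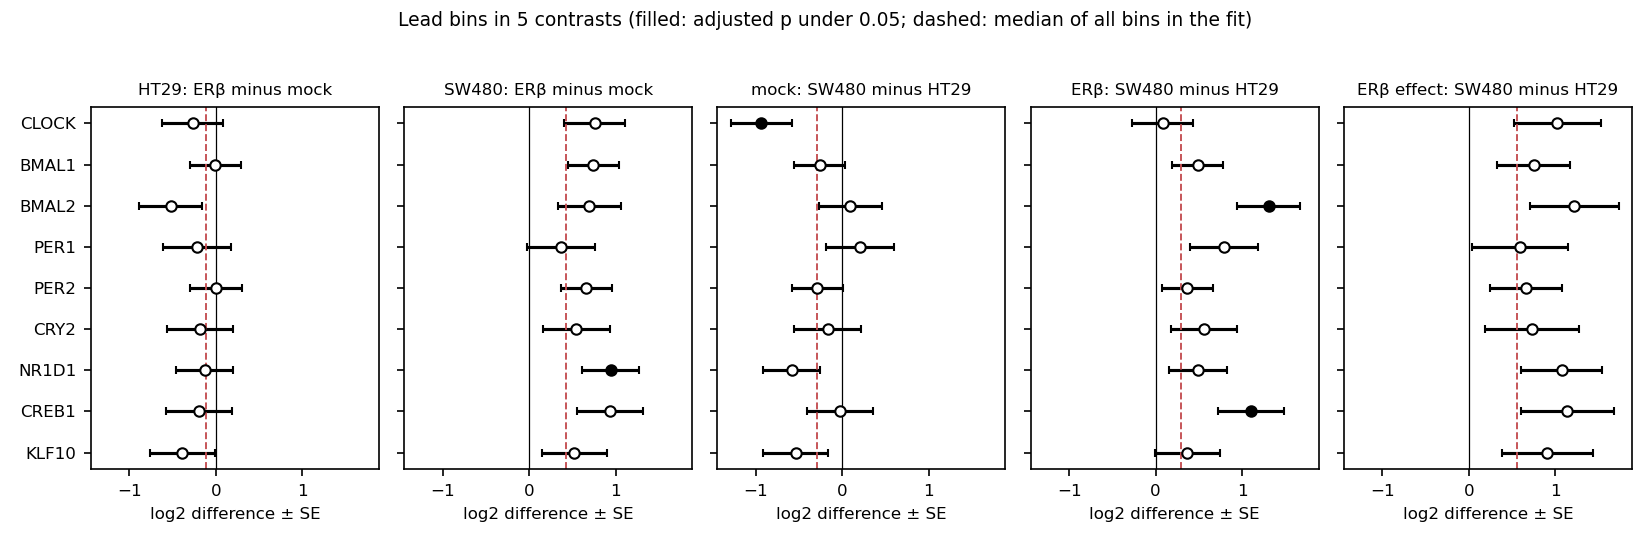
Log2 difference with its SE at the lead bin of 9 clock genes in the 5 contrasts. Filled points passed an adjusted p under 0.05 and the dashed line is the median of all 25545 bins. The filled points are NR1D1 in the SW480 ERβ contrast, CLOCK in the mock line contrast, and BMAL2 and CREB1 in the ERβ line contrast, and several signs in the SW480 panels depend on the scaling, with 5 of 9 positive for SW480 ERβ after quantile normalisation.

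The arms were set against each other as the mean log2(signal + 1) of the 3 core activator lead bins minus that of the 5 repressor arm lead bins, in every library and with no test, since the genes were chosen by hand. The core activators minus the repressor arm gave 0.20, 0.18 and 0.03 in HT29 mock and −0.21, −0.04 and 0.12 in HT29 ERβ. In SW480 mock it gave −0.04, −0.13 and −0.42 and in SW480 ERβ 0.03, 0.02 and 0.16. The 3 SW480 mock libraries were below 0, those of HT29 mock and SW480 ERβ above 0, and those of HT29 ERβ on both sides. The group means were 0.14 ± 0.10, −0.04 ± 0.16, −0.20 ± 0.20 and 0.07 ± 0.08 (SD, n = 3), small beside the differences between genes of 1 arm, such as CRY1 and CRY2. These values are not divided by input. In SW480 mock the lead bins of CLOCK, BMAL1 and BMAL2 were 1.45, 1.09 and 1.35 times input, and CRY1 lay near its input in all 4 groups. At the start bins the group means were 0.25, 0.11, 0.11 and 0.24, and the SW480 mock libraries were at 0.13, −0.03 and 0.24.

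**Figure D5:**
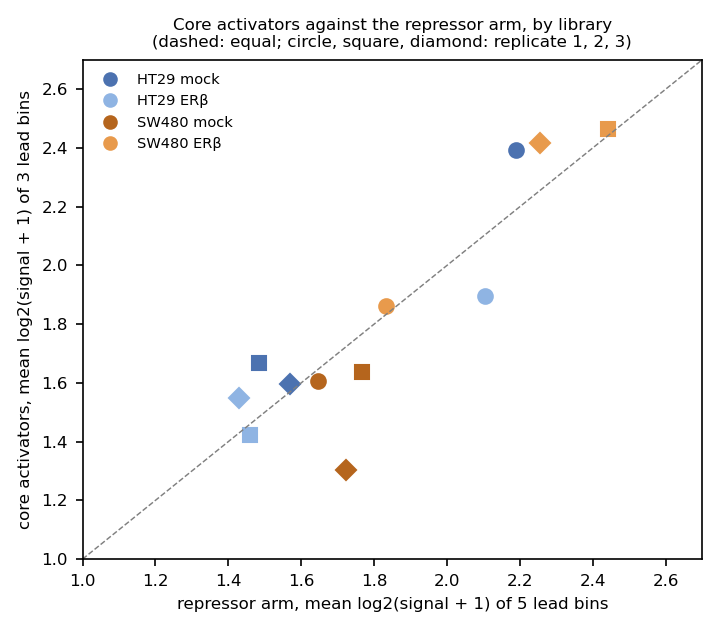
Mean log2(signal + 1) over the lead bins of the 3 core activators against that of the 5 repressor arm genes, 1 point per ChIP library, with the dashed line where both are equal. The SW480 mock points lie below the line by 0.04 to 0.42, and all points lie within 0.42 of it.

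Of 25 other genes of the circadian pathway, 15 had a listed bin in any group, among them NR1D2, DBP, TEF, HLF, BHLHE40, BHLHE41, CIART, TIMELESS, CSNK1D, NOCT, SIRT1, PRKAA1 and GSK3B. By group 13, 10, 4 and 13 of the 25 had one, in HT29 mock, HT29 ERβ, SW480 mock and SW480 ERβ, against 21.6%, 15.8%, 7.59% and 31.7% of all protein-coding genes and 35.8% for any group. Some of these bins lie nearer to the start of a neighbouring gene, such as CA11 for DBP and ANP32E for CIART. Of their 19 lead bins in the test, none was called for ERβ in HT29 or in SW480 or for the interaction by limma, where 0.0189%, 25.5% and 10.4% of the lead bins of all protein-coding genes were called higher, and 434, 8889 and 7021 of all bins had an unadjusted p under 0.05. With the replicate block 11 of the 19 were called higher for ERβ in SW480 and 12 for the interaction, where 47.8% and 40.2% of all bins were higher.

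In the line contrasts 5 of the 19 were lower and 0 higher in SW480 mock than in HT29 mock, where 23.3% of the lead bins of all protein-coding genes were lower and 8.28% higher. In ERβ cells 5 of 19 were higher in SW480 and 3 lower, where 37.6% of all lead bins were higher and 7.73% lower. The bins of HLF, a PAR bZIP factor of clock output, and PPARGC1A met the filter of the test through the HT29 libraries alone, so a lower SW480 value was built in. They make up 2 of the 5 lower calls in mock cells and 2 of the 3 in ERβ cells, and nothing is read from those counts. The HLF bin, at −31059 bp, had means of 4.22 in HT29 mock, 2.84 in HT29 ERβ, 0.370 in SW480 mock and 0.544 in SW480 ERβ, and the PPARGC1A bin 1.86, 1.22, 0.307 and 0.299. TIMELESS was lower in SW480 in mock cells at −1.28 (adjusted p = 0.000499 by limma), and RORA was called lower too. The TIMELESS bin had means of 3.24 in HT29 mock, 2.83 in HT29 ERβ, 0.758 in SW480 mock and 0.793 in SW480 ERβ. Its SW480 mock mean was 2.05 times input, so that group alone met the filter of the test only narrowly. The E-box repressors BHLHE40 (1.31, adjusted p = 0.00057) and BHLHE41 (1.46, 0.0011) and the deacetylase SIRT1 (1.11, 0.0077) were higher in SW480 in ERβ cells, as were NR1D2 and NPAS2. RORA and NPAS2 had no listed bin in any group, and their lower group alone did not meet the filter of the test. The RORA mean was 0.806 in SW480 mock (1.68 times input) and the NPAS2 mean 0.635 in HT29 ERβ (1.67 times). The BHLHE40 start bin had means of 1.64, 1.21, 2.16 and 4.38, and the BHLHE41 bin, which is nearest to SSPN, 10.5, 7.98, 12.9 and 23.2. The calls of TIMELESS, BHLHE40 and BHLHE41 held without any 1 library. SIRT1 was lost without HT29 ERβ replicate 2 (0.89, adjusted p = 0.0816) or SW480 ERβ replicate 2 (0.99, 0.0527), and RORA without HT29 mock replicate 1 (−0.68, 0.0836) or SW480 mock replicate 1 (−0.65, 0.150) or 3 (−0.81, 0.0616). NR1D2 was lost without any of 7 libraries, at a log2 difference of 0.63 to 0.93, and NPAS2 without any of 9, at 0.42 to 0.67. In 3 of the 7 and 4 of the 9 the library left out belonged to neither group compared, so the difference stayed the same and the adjusted p was 0.0510 to 0.0584. With the replicate number as a block across both lines, NR1D2 was also lost (adjusted p = 0.0586 by limma). The lower calls in mock cells then went from 5 to 4. Divided by the local input BHLHE41 was at 0.58 with an adjusted p of 0.256.

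For each clock gene with a listed bin within 2 kb of its 5′ end, the start bins of 1135 other genes were ranked by Pearson's r of log2 signal over the 12 libraries, as a description, since the libraries share their differences in enrichment. The nearest pattern to PER1 was BIRC3 (r = 0.966), that to CREB1 was INAVA (0.975), and that to BMAL2 at −1335 bp was C20orf144 (0.961). CRY2 at +1583 bp was nearest to MNT (0.942), KLF10 to the bin shared by IL4I1, NUP62 and ATF5 (0.930), CLOCK to AP1S3 (0.917) and BMAL1 to GMEB2 (0.901). NR1D1 at −512 bp had the weakest nearest pattern, SLC37A4 (0.853).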

How the data were processed

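Libraries were grouped by the labels as 3 ChIP libraries and 1 input for each of 4 groups. The deposited tracks hold signal: the authors aligned reads to hg38 with STAR and wrote HOMER tag density, per base, scaled to 10 M tags (versions not given in the sources used here). Long runs of constant value smooth weak signal, and the tracks do not hold read depth. The study tested raw tag counts, which were not used here. From the tracks, the mean signal per 200-bp bin was computed with Python 3.11.15 (numpy 2.4.6, pandas 2.3.3, numba 0.67.0, pysam 0.24.0, matplotlib 3.10.9), and genes were placed with GENCODE 44. The κB, AP-1 and E-box letters were searched on both strands.

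Bins with a mean of at least 0.75 over the 12 ChIP libraries and at least 2 times the inputs (25545) were tested in 1 fit of 4 groups on log2(signal + 1), with limma 3.58.1 (R 4.3.3), its variance prior following the mean, and adjusted by Benjamini-Hochberg over all bins. Fold changes are on that scale and understate low bins. The scripts were tested on simulated data. Each of the 10 genes was named at its lead bin and its start bin (highest mean within 1 kb of the 5′ end), and its listed bins by position. Other bins were listed by their height in a group, so they were not tested. Of the 25 further clock genes, those with a listed bin are named by rule (some items are not reported here), RORA, PPARGC1A and NPAS2 were named after their values were seen, and the most alike start bins had a mean of at least 2. The members and lists were chosen with earlier results of these data known.

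Same-numbered mock and ERβ libraries deviated together (r = 0.485, 0.187 and 0.195 in HT29 and 0.261, 0.105 and 0.164 in SW480), so by the limit of 0.1 the replicate number was taken to pair them, on the correlations alone. In HT29, mock 2 with ERβ 3 (0.213) and mock 3 with ERβ 2 (0.143) were as alike, so replicates 2 and 3 were not told apart there. The labels do not say what a number marks. The fit without the block is reported, and the block is given where it changes a call. For the ERβ contrasts and the interaction the block was the replicate number within a line. For the line contrasts it was the number across both lines, and the correlations above do not cover that pairing. Alternatives were the thresholds, the filters, the pseudocount, quantile normalisation, division by local input, no trend, 2-group fits and leaving out each library.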

Additional observations from a re-analysis of the deposited data

How the results depend on the processing

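No difference called in the reported fit at a lead or start bin of the 10 clock genes changed its direction under any alternative. Some calls made in an alternative alone did. In the mock line contrast BMAL2 and PER1, called higher with quantile normalisation, went as low as −0.53 and −0.80 in other alternatives. For ERβ in SW480, BMAL2, PER2, CRY2 and KLF10 were called higher with the replicate block. Their lowest log2 differences were −0.05, −0.23, −0.18 and −0.17. The calls themselves were less stable. Without 1 library at a time, listed bins ran from 13 to 24 in HT29 mock, 8 to 17 in HT29 ERβ, 5 to 5 in SW480 mock and 23 to 28 in SW480 ERβ. With a mean of at least 3, HT29 mock had 12 and SW480 ERβ 15. At 6 times input HT29 ERβ had 5 and SW480 ERβ 14. SW480 ERβ replicate 1 alone, chosen after seeing the data like the 2 alternatives named for HT29 replicate 1 and for SW480 ERβ replicates 2 and 3, listed 17.

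Of the 9 lead bins, 1 was called for ERβ in SW480. That count was 0 with quantile normalisation, 3 after division by local input, 2 with no trend and 4 in the 2-group fit. Of all bins 3.70%, 24.4%, 18.7% and 27.3% were higher there, against 18.8% in the reported fit. Without HT29 replicate 1 of mock and ERβ the count was 6, with 34.8% of all bins higher. At most 0.818% of all bins were lower in any of these fits. Leaving out 1 library gave 0 to 5. The count was 3 without HT29 mock 1 or HT29 ERβ 1, and 5 without SW480 ERβ 1. It was 0 without SW480 mock 1 or 2 or SW480 ERβ 2 or 3. Of all bins 8.40% (without SW480 ERβ 2) to 33.3% (without SW480 ERβ 1) were higher. For the mock line contrast (1 called) the count was 2 with no input filter and 3 with quantile normalisation (2 higher and 1 lower). Of all bins 24.9% and 22.3% were higher there, and 29.2% and 22.1% lower. After local input and without the HT29 replicate 1 pair it was 0. There 3.26% and 7.88% of all bins were higher, and 26.9% and 17.4% lower. Without 1 library it was 0 to 1, with 3.92% to 7.39% of all bins higher and 12.1% to 28.4% lower. For the ERβ line contrast (2 called) it was 1 with quantile normalisation, 1 after local input, 5 without the HT29 pair, 0 without SW480 ERβ replicates 2 and 3, and 1 to 4 without 1 library, with 4 without SW480 ERβ 1. The interaction (0 called) had 1 without the HT29 pair and 0 to 3 without 1 library. It had 3 without HT29 ERβ 1 and 2 without SW480 ERβ 1. Without the pair 13.4% of all bins were higher, without HT29 ERβ 1 25.1% and without SW480 ERβ 1 19.5%, with at most 0.0117% lower. The HT29 ERβ contrast gave 0 under every alternative run, 0 to 0 without 1 library.

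For the 25 other clock genes (19 lead bins in the reported fit), ERβ in SW480 (0 called) gave 1 with a mean of at least 1.5. There 23.2% of all bins were higher and 0% lower. It gave 3 after local input, 5 with no trend, 5 in the 2-group fit, 8 without the HT29 pair and 0 to 6 without 1 library. The mock line contrast (5) gave 8 with no input filter, where lead bins under 2 times the inputs were tested too. It gave 9 with quantile normalisation, 3 without the HT29 pair and 3 to 7 without 1 library. The ERβ line contrast (8) gave 5 to 8 without 1 library. The interaction (0) gave 3 after local input, 3 without the HT29 pair and 0 to 5 without 1 library. Of all bins 18.2% were higher for the interaction after local input, and 2.33% to 25.1% without 1 library, with at most 0.0353% lower. The shares of all bins for the other settings are those given for the 10 genes.

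With the replicate block, 8 of the 9 lead bins were called for ERβ in SW480 and 7 for the interaction. Of the 19 of the other clock genes 11 and 12 were called. Of all bins 47.8% and 40.2% were higher. The line contrasts, where the block tied the replicate number across both lines, kept the calls of the 10 genes. Over all bins, quantile normalisation gave 944 higher and 209 lower for ERβ in SW480, and 228 and 23 for the interaction. The HT29 replicate 1 pair belongs to neither SW480 group, so without it the SW480 log2 differences stayed the same and only their SE moved. CREB1 stayed at 0.94, with an SE of 0.27. The cause of these changes was not tested. The scaled tracks hold no counts, so no limit from counting error is given.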
